A study of Homo sapiens with 2 samples.

Results

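Solitary peaks are the autosomal peaks of the authors' ZFX peak list with no other peak within 300 kb on either side, measured from edge to edge. A peak is a call in that list, and binding by ZFX at single peaks was not checked here. They numbered 640 of the 14279 peaks on chromosomes 1 to 22, or 4.48% (exact 95% interval 4.15% to 4.83%), and of the 14471 peaks of the whole list. The members were chosen by the positions of the peaks alone, and the outermost peak of a chromosome was judged on its 1 side. The study mapped ZFX with ChIP-seq, the sequencing of DNA from precipitated chromatin, in the established medulloblastoma line DAOY. Its 2 samples were sheared chromatin of DAOY cells precipitated with a rabbit antibody against ZFX, and sheared chromatin of the same line without precipitation as input. Both came from untreated cells of this single line, with no genotype or agent given. The peak list belongs to the ZFX sample, a single library, and nothing from the input was used.

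ZFX is a transcription factor with zinc fingers whose gene lies on the X chromosome. In other human cells it is known to bind chiefly at promoters that lie in CpG islands, close to and often just downstream of the start of transcription, where it activates genes. Promoters of this kind crowd together in gene-rich parts of the genome, and gene deserts hold few of them. Medulloblastoma is a tumour of the cerebellum, and ZFX is known for supporting the self-renewal of stem cells and the growth of several tumours. Gene positions and sequence on hg19, the build taken for the peaks, were not used here, so no solitary peak is tied to a gene, a promoter or a sequence motif.

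The peaks were compared within the list of 1 library. There was no replicate check and no test of any difference, and a positional rule of this kind shares its source with every other value of the list. Intervals are exact binomial intervals for shares and intervals from order statistics for medians. They cover counting over peaks, treat peaks as independent and say nothing of how another library would vary. How deeply the library was read is unknown. Scores are the authors' own, have no stated unit and start at 50 in this list.

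Solitary peaks were set against 6586 close peaks, those with a neighbour within 10 kb, which made up 46.1% of autosomal peaks. Of these close peaks, 4595 had a neighbour within 1 kb, and whether such neighbours were parts of a single region was not tested. The remaining 7053 autosomal peaks (49.4%) had their nearest neighbour between 10 kb and 300 kb away. Just inside the limit lay a member on chromosome 22 at chr22:40441423-40441697, with 300.2 kb to its nearest neighbour and a score of 97.1. The next members lay on chromosome 20 at chr20:40246570-40247069, with 300.7 kb and a score of 286, and on chromosome 6 at chr6:133135472-133135989, with 301 kb and a score of 224. Just outside it lay peaks at chr10:11784226-11784866 (299.7 kb, score 487), chr18:9914049-9914857 (298.9 kb, score 285) and chr1:172113340-172113862 (298.8 kb, score 55.1). The scores of these 3 peaks on either side of the limit overlapped.

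Solitary peaks were unevenly spread over the chromosomes. Chromosome 18 had the highest share, with 23 of 151 peaks solitary (15.2%, exact 95% interval 9.91% to 21.97%). Chromosome 8 followed with 55 of 394 (14.0%, 10.7% to 17.8%), chromosome 13 with 27 of 209 (12.9%, 8.69% to 18.2%) and chromosome 4 with 41 of 370 (11.1%, 8.07% to 14.7%). These 4 chromosomes held 146 solitary peaks, 22.8% of the members, and 7.87% of the autosomal peaks. At the other end, 5 of 975 peaks were solitary on chromosome 19 (0.513%, 0.167% to 1.19%) and 7 of 942 on chromosome 17 (0.743%, 0.299% to 1.53%). The share was 29.7 times as high on chromosome 18 as on chromosome 19. In number, chromosome 2 came first with 66, ahead of chromosome 5 with 56 and chromosome 8 with 55.

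By construction, a crowded chromosome leaves little room for peaks with 300 kb free on both sides. Chromosome 19 had 16.6 peaks per Mb between its outermost peaks and chromosome 18 had 1.94. Across the 22 autosomes the share of solitary peaks was lower where peaks per Mb were higher (Spearman's rho = -0.88), a description in which both measures share the number of peaks. Per length the spread was smaller, and solitary peaks per 10 Mb were also fewer where peaks per Mb were higher (rho = -0.61). Both of these measures share the length between the outermost peaks. Solitary peaks numbered 3.77 per 10 Mb on chromosome 8, 3.10 on chromosome 5, 2.96 on chromosome 18 and 2.90 on chromosome 7, against 0.866 on chromosome 17 and 0.850 on chromosome 19, with a median of 2.12. The highest value was 4.44 times the lowest. Chromosome 4 showed how the 2 scales part: its share was 11.1%, whereas its 2.15 solitary peaks per 10 Mb lay next to the median. Set against the number of protein-coding genes in the RefSeq table for GRCh38.p14, from which no position was taken, chromosome 18 had 8.52 solitary peaks per 100 genes, chromosome 13 had 7.99 and chromosome 8 had 7.70. Chromosome 17 had 0.599 and chromosome 19 had 0.345.

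**Figure D1:**
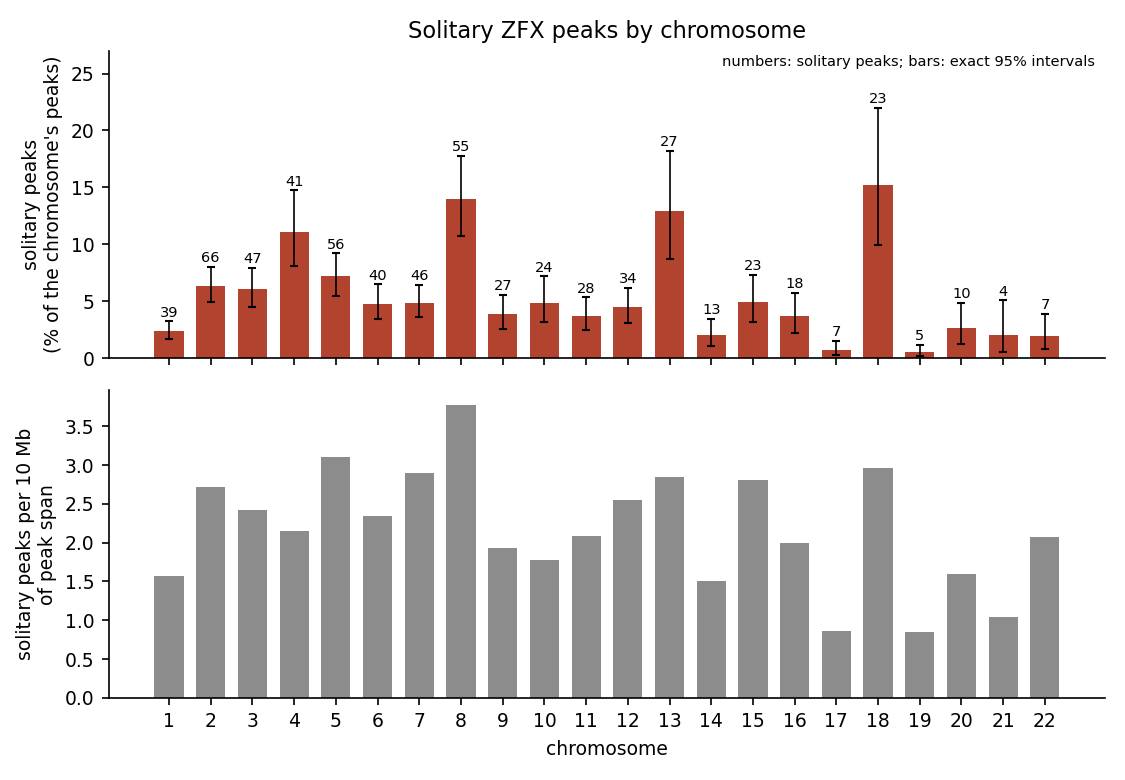
The upper plot gives the percentage of each autosome's peaks that were solitary, with exact 95% intervals and the number of solitary peaks above each bar; the lower plot gives solitary peaks per 10 Mb between the outermost peaks of the chromosome. Chromosomes 4, 8, 13 and 18 stand highest by share, and chromosomes 17 and 19 are lowest on both scales.

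The gap to the nearer neighbour had a median of 506 kb, with 381 kb and 742 kb as the quartiles. It was at most 400 kb in 191 members (29.8%), over 1 Mb in 97 and over 2 Mb in 22. The gap to the farther neighbour, known for the 633 members with a peak on both sides, had a median of 1151 kb. In 166 of these (26.2%) the farther gap was more than 3 times the nearer one. The farther gap was over 5 Mb in 22 members. Its largest value, 19.3 Mb, lay beside a peak of 280 bp on chromosome 9 at chr9:47194898-47195177 with a score of 53.7. Each chromosome has 1 peak-free stretch longer than the rest. Members within 2 Mb of it numbered 36 (5.62%), against 448 (3.14%) of all autosomal peaks, and 18 members bordered it. A peak bordering it already has more than 300 kb free on that side, so the rule itself raises both counts of members. Gaps of the genome assembly were not taken into account.

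The most isolated member lay on chromosome 4 at chr4:135122222-135122881. It was 660 bp wide with a score of 212, and no other peak lay within 4.81 Mb of it. The next was also on chromosome 4, at chr4:95129036-95129460, with a score of 95.01 and 3.93 Mb to its nearest neighbour. On chromosome 13 a peak of 246 bp at chr13:64649036-64649281 scored 53.3 with its nearest neighbour 3.68 Mb away. On chromosome 5 a pair of members stood 3.62 Mb apart. The first, at chr5:25190360-25191140, scored 553 over 781 bp, and the second, at chr5:28809800-28810057, scored 51.4 over 258 bp. These 5 members ranged from the bottom of the score scale to the strong end. Among all 640 members, the gap to the nearer neighbour had almost no relation to score (Spearman's rho = -0.03) or width (rho = -0.07).

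**Figure D2:**
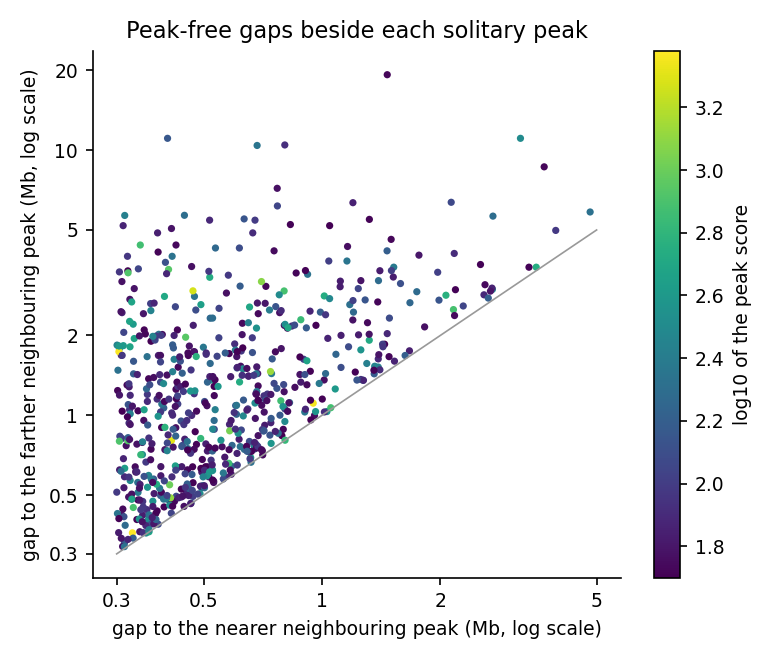
Each point is 1 of the 633 solitary peaks with a neighbour on both sides, plotted by the gap to the nearer peak (x axis) and to the farther peak (y axis) in Mb on log scales, coloured by the log10 of its score; the line marks equal gaps. Points crowd at nearer gaps under 1 Mb, 166 have a farther gap over 3 times the nearer one, and high scores appear across the plot.

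Solitary peaks often followed one another along a chromosome. Of the 640 members, 361 (56.4%) had another member as the next peak, in 134 runs of 2 or more, and 279 had no member next to them on either side. The rule builds in part of this, since the peak next to a member already has over 300 kb free on that side. Of the 14257 gaps between neighbouring autosomal peaks, 2023 were over 300 kb. Whether runs were more frequent than these gaps alone would give was not tested. There were 83 runs of 2, 32 of 3 and 19 of 4 or more, and the last held 99 members on 12 chromosomes. The longest run, 12 members, opened the peaks of chromosome 8 and covered 18.4 Mb (chr8:495690-18892469), with scores from 60.3 to 388 and a median of 79.5. A second run of 8 members lay on the same chromosome at chr8:22925142-29940633, with scores from 59.9 to 158. Together they held 20 of the 55 members of chromosome 8 (36.4%). A run of 8 on chromosome 5 covered 13.3 Mb (chr5:15500631-28810057) and ended in the pair named above. The median score was 85.9 (95% interval 76.9 to 104.8) in runs of 4 or more, 90.6 (77.0 to 106) in runs of 2 or 3 and 96.1 (85.5 to 112) in the 279 others. These intervals overlapped, as did those of the median widths, which were 414 bp (376 to 460) in runs of 4 or more, 413.5 bp (381 to 446) in runs of 2 or 3 and 429 bp (399 to 474) in the others.

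Solitary peaks were narrower than close peaks. Their median width was 418.5 bp (95% interval 401 to 440 bp), against 464.5 bp (458 to 471 bp) in close peaks, a ratio of 0.901. Widths ran from 136 to 3365 bp in solitary peaks, with quartiles of 293 and 607 bp, and from 132 to 9036 bp in close peaks, with quartiles of 343 and 664 bp. The ranges overlapped almost fully, and both quartiles were lower in solitary peaks. Peaks of 300 bp or less made up 26.7% of solitary peaks (171, exact 95% interval 23.3% to 30.3%) and 16.3% of close peaks (1075, 15.4% to 17.2%), beside 16.3% of all autosomal peaks. Peaks of 1000 bp or more made up 5.94% of solitary peaks (38) and 7.33% of close peaks (483), beside 9.34% of all autosomal peaks. Of the 18 chromosomes with 10 or more members, the median width of solitary peaks was below that of close peaks on 13 and above it on 5. On chromosome 7 it was 419 bp in solitary peaks and 588.5 bp in close peaks, and on chromosome 12 it was 339.5 bp in solitary peaks and 489.5 bp in close peaks. On chromosome 13 it was 494 bp in solitary peaks and 407.5 bp in close peaks. Medians of single chromosomes are given without intervals, and these rest on 46 solitary peaks on chromosome 7, 34 on chromosome 12 and 27 on chromosome 13.

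Scores differed less. The median score was 92.6 (95% interval 84.2 to 99.5) in solitary peaks and 100.1 (97.8 to 103) in close peaks, a ratio of 0.924, and the 2 intervals overlapped. Scores of 100 or more were reached by 294 solitary peaks (45.9%, exact 95% interval 42.0% to 49.9%) and by 3301 close peaks (50.1%, 48.9% to 51.3%), beside 53.5% of all autosomal peaks. At the weak end, 145 solitary peaks (22.7%) and 1221 close peaks (18.5%) scored under 60, beside 18.2% of all. At the strong end the intervals of both sets overlapped. Scores of 500 or more were reached by 41 solitary peaks (6.41%, 4.64% to 8.59%) and 391 close peaks (5.94%, 5.38% to 6.53%), beside 8.26% of all. Scores of 1000 or more were reached by 11 solitary peaks (1.72%, 0.861% to 3.05%) and 86 close peaks (1.31%, 1.05% to 1.61%), beside 2.09% of all. None of the solitary peaks reached 3100, the value at which 28 peaks of the list stand, for which the exact 95% interval runs up to 0.575%, and 11 close peaks did, beside 0.217% of all.

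The lower median score was not shared by the chromosomes. Of the 18 with 10 or more members, the median score of solitary peaks was below that of close peaks on 9 and above it on 9. On chromosome 11 the median score was 68.9 in solitary peaks and 99.2 in close peaks, on chromosome 12 it was 70.2 in solitary peaks and 100.8 in close peaks, and on chromosome 7 it was 72.5 in solitary peaks and 113 in close peaks. On chromosome 18 it was 109 in solitary peaks and 80.5 in close peaks, and on chromosome 20 it was 205 in 10 solitary peaks and 92.2 in close peaks. Such medians are given without intervals and rest on few solitary peaks: 28 on chromosome 11, 34 on chromosome 12, 46 on chromosome 7 and 23 on chromosome 18. On chromosomes 4, 8, 13 and 18 together the median score was 91.8 in solitary peaks and 95.5 in close peaks, and on the other autosomes it was 93.7 in solitary peaks and 100.6 in close peaks. The number of copies of each chromosome in this line was not measured here.

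**Figure D3:**
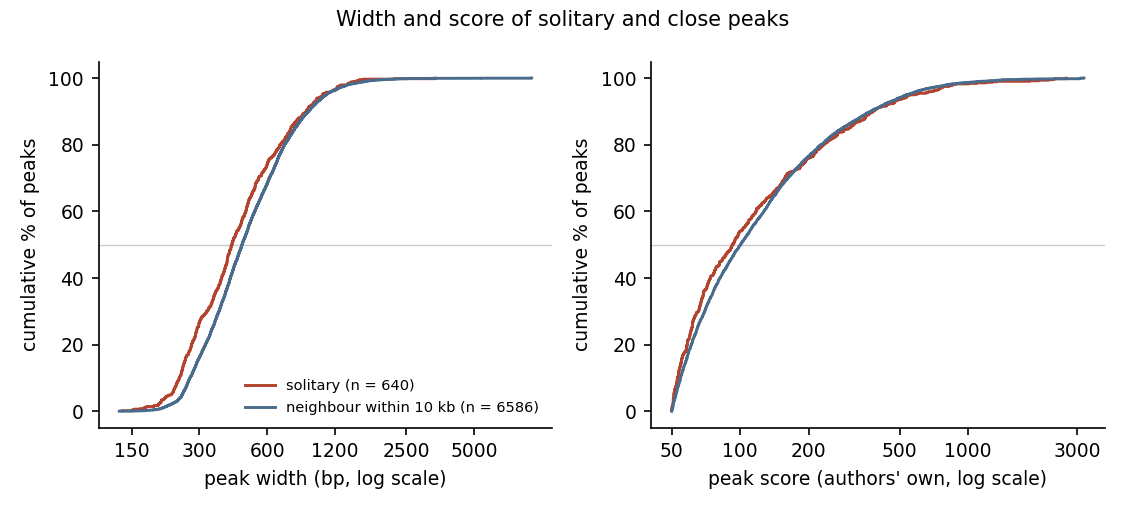
Cumulative percentages of peaks by width in bp (left) and by the authors' score (right), both on log scales, for 640 solitary peaks (red) and 6586 peaks with a neighbour within 10 kb (blue). The red width curve runs to the left at the narrow end, with 26.7% of solitary and 16.3% of close peaks at 300 bp or less, while the score curves meet above a score of about 200.

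Width and score rose together in both sets (Spearman's rho = 0.81 in solitary peaks and 0.82 in close peaks), so the sets were also compared at like scores. Among peaks scoring 50 to 75, the median width was 288 bp (95% interval 278 to 298 bp) in 260 solitary peaks and 319 bp (316 to 324 bp) in 2290 close peaks. At scores of 100 to 200 it was 496 bp (476 to 533 bp) in solitary peaks and 544 bp (534 to 554 bp) in close peaks. At scores of 200 to 500 it was 757 bp (701 to 827 bp) in solitary peaks and 761 bp (742 to 779 bp) in close peaks. At scores of 500 or more it was 989 bp (804 to 1145 bp) in solitary peaks and 1039 bp (977 to 1064 bp) in close peaks. The intervals lay apart at 50 to 75 and at 100 to 200, and overlapped at the higher scores and at 75 to 100, where the medians were 403 bp in solitary peaks and 420 bp in close peaks. At like widths the order of the median scores turned in all but the narrowest peaks. Among peaks of over 300 and up to 500 bp the median score was 84.8 (77.0 to 91.9) in solitary peaks and 77.1 (76.0 to 78.7) in close peaks. From there to 800 bp it was 186 (157 to 208) in solitary peaks and 157 (152 to 162) in close peaks, and above 800 bp it was 386 (352 to 473) in solitary peaks and 363 (341 to 383) in close peaks. At 300 bp or less it was 56.1 in solitary peaks and 57.0 in close peaks. These intervals overlapped at each width. With close peaks weighted to the same width deciles, the ratio of median scores was 1.07 in place of 0.924.

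In median score and in the share of strong peaks, solitary and close peaks both lay below the peaks between them. The median score was 102 (98.5 to 106) with a neighbour within 1 kb and 96.8 (92.7 to 102) with the nearest at 1 to 10 kb. It was highest, 130 (123 to 136), with the nearest at 30 to 100 kb, and 116 (109 to 123) at 100 to 300 kb. Among solitary peaks it was 92.6 (85.5 to 99.3) at 300 kb to 1 Mb and 91.7 (72.8 to 120) beyond 1 Mb. The share scoring 500 or more followed the same course, with 5.75% within 1 kb, 11.8% at 30 to 100 kb, 6.45% at 300 kb to 1 Mb and 6.19% beyond 1 Mb. Width peaked at the same distance, with medians of 465 bp within 1 kb, 528 bp at 30 to 100 kb, 420 bp at 300 kb to 1 Mb and 370 bp (328 to 462 bp) beyond 1 Mb. The 2 solitary classes had the lowest median widths of the 7 classes. The distance at which the values were highest was read from these data, and no test of the course was made.

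**Figure D4:**
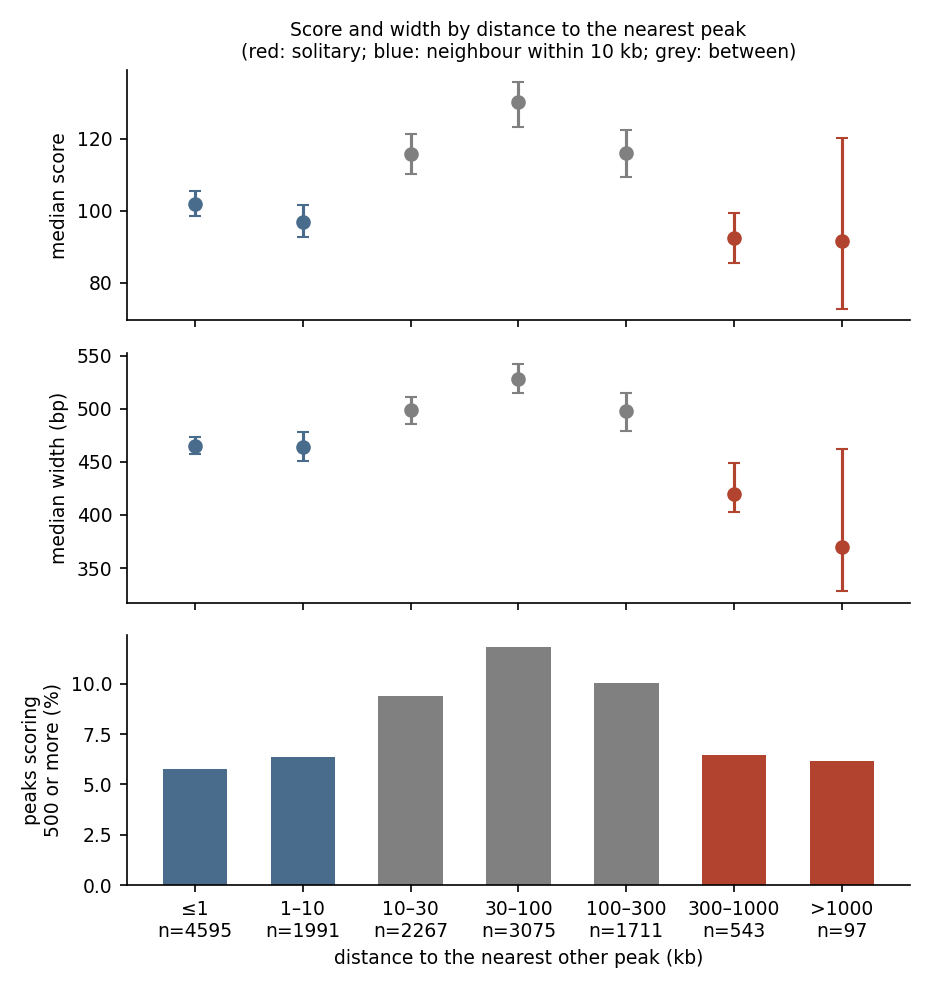
Median score (top) and median width in bp (middle), with 95% order-statistic intervals, and the percentage of peaks scoring 500 or more (bottom), by distance in kb to the nearest other peak; n gives the autosomal peaks in each class. All 3 measures are highest at 30 to 100 kb, at a median score of 130, a median width of 528 bp and 11.8% strong peaks, and are lower at both ends.

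The strongest solitary peaks stood below the top of the list. Scores of 1000 or more were reached by 1.72% of solitary peaks, beside 2.09% of all autosomal peaks. The rank of the strongest of 640 members was not compared with that of a like number of other peaks. The highest score, 2697, ranked 40th among autosomal peaks and belonged to the first peak of chromosome 10, at chr10:180758-182184, which was 1427 bp wide and had 552 kb to its only neighbour. A second strong member on that chromosome, at chr10:103453725-103455257, scored 2403 over 1533 bp, with peak-free gaps of 329 and 360 kb. On chromosome 12 a peak at chr12:119617852-119618875 scored 2036 over 1024 bp. Chromosome 5 held a peak at chr5:130499846-130501123 that scored 1862 over 1278 bp, with 2.95 Mb free on one side, and another at chr5:147763412-147764133 that scored 1090 over 722 bp. On chromosome 2 a peak at chr2:677077-677725 scored 1274 over 649 bp. On chromosome 7 a peak at chr7:123387643-123389846 scored 1199 over 2204 bp, with 3.19 Mb free on one side. These 7 peaks, 649 to 2204 bp wide, are part of the 10 highest, which lay on 6 chromosomes and scored 1090 or more.

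The other 3 of the 10 were narrow for their score. A peak on chromosome 8 at chr8:70602210-70602698 scored 2349 over 489 bp and lay 304 kb from its nearest neighbour, close to the limit. On chromosome 12 a peak at chr12:20704340-20704563 scored 2245 over only 224 bp, with gaps of 1111 and 949 kb. On chromosome 2 a peak at chr2:230045317-230045704 scored 1338 over 388 bp, with gaps of 1462 and 739 kb. They were the only members with a score of 500 or more and a width under 500 bp, a class chosen after their values were seen. The median width of the 41 members scoring 500 or more was 989 bp. This class held 3 solitary peaks (0.469%, exact 95% interval 0.0968% to 1.36%) and 8 close peaks (0.121%, 0.0525% to 0.239%), beside 0.133% of all autosomal peaks, or 19 peaks in all. Repeated sequence and the input were not examined for these peaks.

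The widest members were mostly strong, with 1 exception. The widest of all, on chromosome 6 at chr6:58776035-58779399, covered 3365 bp with a score of only 138, and no peak followed it for 5.50 Mb. Next came the peak of 2204 bp on chromosome 7 described above. A pair on chromosome 6, at chr6:82956312-82957912 and chr6:146864223-146865767, covered 1601 bp with a score of 510 and 1545 bp with a score of 708. The fifth was the peak of 1533 bp on chromosome 10. Apart from the first, these peaks had the high scores that went with great width in the list. Repeated sequence, the input and gaps of the genome assembly were not examined for any of these peaks, the first included.

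Being solitary depended on which peaks the list held. Setting any peaks aside can only lengthen the gaps between those left, and no like number of other peaks was set aside for comparison. Peaks scoring under 100, members among them, were set aside before the rule was applied. Of the 7641 remaining autosomal peaks, 717 were solitary (9.38%). These included all 294 members that scored 100 or more, as they must, and 423 others whose neighbours within 300 kb all scored under 100. Of those 423, 118 had such a weak neighbour within 10 kb, and the median distance to the nearest was 76.2 kb. Their median score was 215, and that of the 294 was 210.2. In this stricter list the median score was 213 in solitary peaks and 187 in close peaks, a ratio of 1.14, and the median width was 647 bp in solitary peaks and 653.5 bp in close peaks, a ratio of 0.990.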

How the data were processed

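DAOY chromatin was sequenced as 2 samples, told apart by the antibody in the labels, and the peaks of the 1 ZFX library were used. Bowtie2 2.0.0 and hg19 are named, without roles, per the submitters' processing notes, and hg19 was taken as the build of the positions. Each peak's name contains MACS, a peak caller. Its version, threshold and control are not stated by the labels or the file. The score of each peak is as the authors deposited it, with no stated unit. Starts were taken as counted from 0 and are printed counted from 1.

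Distances were computed from edge to edge within a chromosome. Autosomal peaks over 300 kb from any other were called solitary and those within 10 kb of another close. The members and the comparisons were chosen with earlier results of these data known. The planned comparison of GC content, motif and genes needed hg19 sequence and was not run. Regions named were the 10 highest by score, the 5 most distant, the 5 widest and the 3 nearest the limit on either side; the peak with the largest farther gap and the 3 longest runs were chosen after their values were seen. Alternatives are given in the closing section. The rule was tested on simulated positions. Depth is unknown, so single peaks carry no counting error. Computing used scipy 1.17.1, pandas 2.3.3 and numpy 2.4.6 in Python 3.11.15, with figures from matplotlib 3.10.9.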

Additional observations from a re-analysis of the deposited data

How the results depend on the processing

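The number of solitary peaks, 640, was set by the distance: it was 1071 at 200 kb, 326 at 500 kb and 97 at 1000 kb, and 633 to 717 in the 5 other alternatives. The ratio of median scores, solitary over close, lay between 0.843, against all other peaks, and 0.949, at 200 kb, in 12 of 14 alternatives. It turned to the other side of 1 in both others, 1.14 in the stricter list of scores of 100 or more and 1.07 with close peaks matched by width decile; the cause was not tested. The ratio of median widths stayed below 1 in all 13 alternatives. It moved outside 0.863 to 0.947, the interval of the main solitary median over the main close median taken as exact, in 4 alternatives. These were 0.797 at 1000 kb, 0.990 in the stricter list, 0.824 with peaks joined at 1 kb, and 0.861 against all other peaks. Joining widens close peaks by construction. It also changed the solitary set, since joined groups could become solitary: the median width was then 458 bp in 717 solitary peaks and 556 bp in close peaks. The difference in the share scoring 100 or more was -7.93 to -1.67 percentage points over 12 alternatives. Leaving out each autosome in turn, chosen after seeing the data, kept the ratio of scores between 0.911 (without chromosome 18) and 0.947 (without chromosome 7), and that of widths between 0.889 and 0.916. Both alternatives on sequence and genes were not run. No paired analysis was possible because 1 library has peaks. Depth is unknown, so peaks made solitary by a weak neighbour that was missed cannot be counted.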

Other observations

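Chromosomes X and Y were outside the rule. On chromosome X, 49 of 177 peaks (27.7%, exact 95% interval 21.2% to 34.9%) had no other peak within 300 kb, a higher share than on any autosome, whose highest was 15.2% on chromosome 18. By construction this share is higher where peaks are sparse, as on the autosomes, and no allowance was made for that. Per length, chromosome X had 3.22 solitary peaks per 10 Mb, below the 3.77 of chromosome 8. The median score on chromosome X was 102 in solitary peaks and 67.8 in 49 close peaks, and the median width was 386 bp in solitary peaks and 319 bp in close peaks. The solitary peaks of chromosome X thus had the higher median of both measures, and 51.0% of them scored 100 or more. The strongest X peak, with a score of 2626, was solitary. On chromosome Y none of 15 peaks was solitary. These differences were not tested, and the medians on chromosome X are given without intervals. The number of copies of chromosome X in this line was not measured here.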
